A study of Mus musculus with 9 samples.

Results

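Motile cilia are the beating hairs of multiciliated cells, and a list of 32 genes that build, move or mark them was followed through olfactory mucosa of male C57BL/6 mice treated with dexamethasone, a synthetic glucocorticoid. The genes were chosen by name, with no measured value in the choice but with earlier results of these data known. Of the 19084 named genes on the array 32 were members, and each stood for itself through the brightest of its probes by the mean of the 9 arrays. The arrays fall into 3 groups of 3. The WK2 group received dexamethasone daily for 2 weeks, with a dose of 1 mg/kg into the peritoneum. The D1 group received dexamethasone for 1 day, and the labels do not repeat a dose for it. The Ctrl group received saline alone for 2 weeks, so D1 and Ctrl differ in the length of injections as well as in the agent. All mice were wild type and 6 to 8 weeks old. There were 9 mice to a group, from which 3 samples were taken forward for their expression of Omp, the olfactory marker protein gene of mature olfactory neurons. Whether the replicates are separate animals is not stated, and the p-values below cover only the spread from sample to sample, some or all of it possibly technical.

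The axoneme, the shaft of a motile cilium, is a cylinder of microtubule doublets around a central pair. Dynein arms on the doublets slide them against each other, while radial spokes, the central pair and the nexin-dynein regulatory complex shape that sliding into a beat. In the nose, respiratory epithelium carries multiciliated cells that move mucus, whereas the cilia of olfactory sensory neurons hold the odour receptors and in mammals do not beat. The transcription factor Foxj1 switches on many of these genes, together with factors of the RFX family, which bind a DNA site known as the X-box.

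The upstream sequences of the members were searched for such sites and for a forkhead site. Of the 32 members, 28 had an entry in the RefSeq promoter table for mouse build GRCm38.p6. The 250 bases before the start of transcription held the RFX half-site GTTGCC, on either strand, in 15 of the 28 members (53.6%), against 3195 of all 27025 genes in the table (11.8%) and 12% of its protein-coding genes. A paired RFX site, GTTNCC followed after 2 bases by GGNAAC, was found in 1 member, Pifo (3.57%), and in 0.444% of all genes, and the half-site of Pifo lies within its paired site. The forkhead core GTAAACA, the kind of site that Foxj1 and its relatives bind, was found in Sntn and Mlf1 (7.14% of members) and in 3.54% of all genes. These letters are descriptions of the windows and show no binding. The windows of 6 members that hold the half-site are printed because values of these genes are given below; they run 5′ to 3′ on the gene's strand, and capitals mark the half-site in either orientation, or the whole paired site in Pifo.
Tekt1, chr11:72361883-72362132, minus strand: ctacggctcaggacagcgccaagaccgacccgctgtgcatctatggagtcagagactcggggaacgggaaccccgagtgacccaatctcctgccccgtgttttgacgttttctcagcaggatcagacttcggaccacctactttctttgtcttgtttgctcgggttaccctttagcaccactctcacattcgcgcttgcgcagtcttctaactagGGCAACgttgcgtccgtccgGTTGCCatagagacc
Pifo, chr3:106001498-106001747, minus strand: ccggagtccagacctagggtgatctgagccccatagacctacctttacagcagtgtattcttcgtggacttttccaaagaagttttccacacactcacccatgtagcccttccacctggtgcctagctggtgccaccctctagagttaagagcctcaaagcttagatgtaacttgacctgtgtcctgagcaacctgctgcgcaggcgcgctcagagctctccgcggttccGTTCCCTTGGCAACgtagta
Sntn, chr14:13670626-13670875, plus strand: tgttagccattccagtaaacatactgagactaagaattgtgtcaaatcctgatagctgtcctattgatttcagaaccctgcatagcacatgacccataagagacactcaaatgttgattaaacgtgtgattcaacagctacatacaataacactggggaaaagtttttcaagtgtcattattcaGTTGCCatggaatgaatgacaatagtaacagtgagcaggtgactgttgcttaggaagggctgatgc
Dynlrb2, chr8:116504765-116505014, plus strand: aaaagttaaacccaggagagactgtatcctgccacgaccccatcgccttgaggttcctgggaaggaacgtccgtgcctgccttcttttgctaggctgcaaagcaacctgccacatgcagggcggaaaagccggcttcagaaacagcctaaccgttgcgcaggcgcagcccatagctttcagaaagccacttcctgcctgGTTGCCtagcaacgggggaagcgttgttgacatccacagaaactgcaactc
Lrrc23, chr6:124779728-124779977, minus strand: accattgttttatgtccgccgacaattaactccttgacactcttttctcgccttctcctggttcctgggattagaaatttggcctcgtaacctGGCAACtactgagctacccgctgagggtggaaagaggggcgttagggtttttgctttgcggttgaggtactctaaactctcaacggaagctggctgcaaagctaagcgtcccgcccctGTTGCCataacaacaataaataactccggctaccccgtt
Ccdc113, chr8:95533850-95534099, plus strand: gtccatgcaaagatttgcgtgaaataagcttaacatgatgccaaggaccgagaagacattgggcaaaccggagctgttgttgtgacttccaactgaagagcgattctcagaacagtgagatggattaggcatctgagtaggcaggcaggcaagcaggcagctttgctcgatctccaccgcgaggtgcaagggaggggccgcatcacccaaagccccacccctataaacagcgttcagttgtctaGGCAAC
In Tekt1 the 2 half-sites began 35 and 15 bases before the start, and in Lrrc23 157 and 39 bases before it. The first base of the site stood 66 bases before the start in Sntn, 51 in Dynlrb2 and 6 in Ccdc113, and the paired site of Pifo began 20 bases before it. The other members with a half-site were Dnai2, Spag16, Hydin, Tekt2, Mns1, Cdhr3, Fam183b, Mlf1 and Cetn2.

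**Figure D1:**
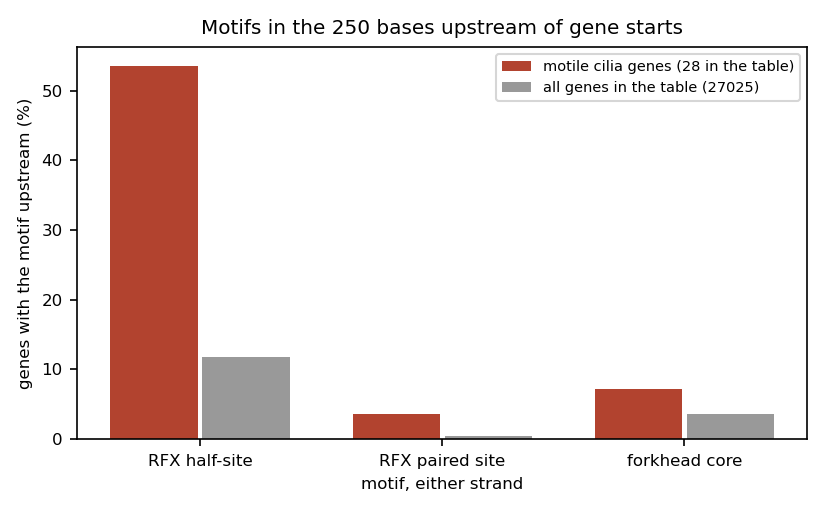
Share of genes (%) whose 250 bases upstream of the start hold each motif on either strand, for the 28 motile cilia genes in the RefSeq table (red) and all 27025 genes in it (grey). The RFX half-site stands at 53.6% of the motile cilia genes and 11.8% of all genes.

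The tissue carried the genes clearly. Intensity, the background-subtracted brightness of a probe on a linear scale, was above the array's median probe (1202 to 1447) on all 9 arrays for 29 of the 32 members. Spag16 and Spag17 lay below it on every array and Hydin on some. Of 10 markers of spermatids, which also build axonemes, 0 were above the array median on all arrays and 8, among them Prm1, Prm2, Tnp1 and Odf1, were below it on all. Of 7 measured markers of ependymal and choroid plexus cells 4 were above it on all arrays, Clic6 and Aqp4 being the brightest, and Ttr and Tmem72 were below it on all. Genes of respiratory secretory cells were measured with 11 of 14 above the median on every array, including Bpifa1, while Scgb1a1 and Scgb3a2 lay below it on all. Mature olfactory neuron markers were above it in 15 of 15 cases, so the samples hold several ciliated or neighbouring cell types. In such bulk RNA fewer cells of a type and less RNA per cell cannot be told apart, and the share of any member's RNA that came from multiciliated cells was not tested.

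WK2 replicate 3 stood apart from its group. On it the members' log2 values, taken as log2(intensity + 50), deviated from the mean of the other 2 WK2 arrays with an SD of 0.72 across members. On WK2 replicates 1 and 2 that SD was 0.36 and 0.47, on the D1 arrays 0.16 to 0.23 and on the Ctrl arrays 0.20 to 0.34. Across all 23631 features tested (1 per gene, plus probes with no gene name) it was 0.51 on WK2 replicate 3 and 0.32 to 0.47 on the other 8 arrays. For WK2 against Ctrl, values without this array are given beside the members' differences that it moved most and those of smallest p. They are also given for called genes of other lists, but not for uncalled genes of those lists.

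With 2 weeks of dexamethasone most motile cilia genes lay slightly above saline, and no single member passed the test. Of 32 members, 25 had a positive difference in WK2 against Ctrl (78.1%, against 62.7% of all features), with a median of 0.35 on the log2 scale beside 0.14 over all features. At an adjusted p under 0.05 (limma, Benjamini-Hochberg over all features) 0 members were called, and 1.61% of all features were. At an unadjusted p under 0.05 there were 12 members, 37.5%, against 29.7% of all features. Of these, 11 were higher in WK2 (34.4%, against 17.3% of all features) and Dnah11 was lower (3.12%, against 12.4%). No overlap between the WK2 and Ctrl values was seen in 9 members, 28.1%, which is under the 37.6% of all features; 8 were higher in WK2 (25%, against 23.8%) and 1 was lower (3.12%, against 13.8%). Without WK2 replicate 3 the median was 0.26 (0.10 over all features), 26 members were above 0 and 0 were called (smallest adjusted p 0.0824). Quantile normalization set the median of all features to 0.02 and that of the members to 0.26, and median centring set them to 0.04 and 0.25. Under quantile normalization 3 members passed, Ccdc39, Spag6 and Tmem212, where 5.34% of all features did. With median centring 1 did, Dnah11, which is 3.12% against 6.41% of all features.

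**Figure D2:**
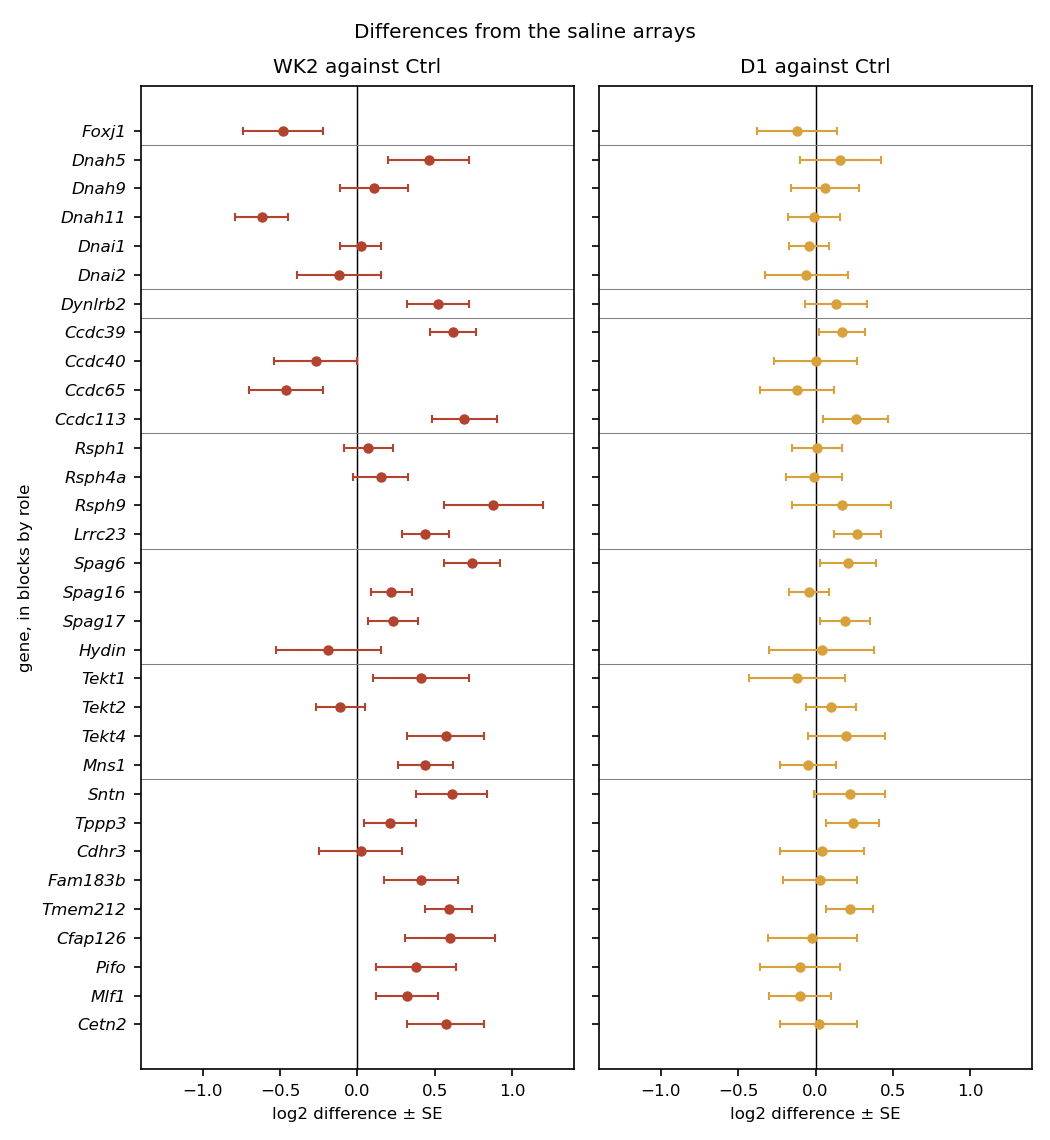
Log2 difference with its standard error for the 32 motile cilia genes, in blocks by role, for WK2 against Ctrl (left, red) and D1 against Ctrl (right, yellow). WK2 differences run from -0.62 (Dnah11) to 0.88 (Rsph9), and D1 differences from -0.12 to 0.27.

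Foxj1, the master regulator, did not lie with the majority. Its intensity was 17694, 19583 and 9633 in WK2, 19837, 19117 and 18522 in D1, and 17516, 25402 and 20348 in Ctrl. WK2 replicate 3 was the lowest of the 9 arrays, and the other WK2 arrays lay within the Ctrl range. The log2 difference was -0.48 ± 0.26 (SE) in WK2 against Ctrl (adjusted p = 0.227, limma), and -0.16 without WK2 replicate 3. The difference in D1 against Ctrl was -0.12 ± 0.26, and 0.02 without Ctrl replicate 2.

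The outer dynein arm, which gives the cilium most of its power, was split. Dnah11, an outer arm heavy chain found near the base of the cilium in human airways, had an intensity of 6750, 5581 and 4893 in WK2, 8299, 7973 and 10006 in D1, and 8913, 7704 and 9904 in Ctrl. Every WK2 array lay below every D1 and Ctrl array. It was 1.54-fold lower in WK2 than in Ctrl (log2 -0.62 ± 0.17 SE, adjusted p = 0.0698, limma), 1.53-fold lower than in D1 (adjusted p = 0.156), and -0.52 on the log2 scale against Ctrl without WK2 replicate 3. Dnah5, the heavy chain along the shaft, had 8937, 16063 and 7859 in WK2, 7562, 9291 and 8617 in D1, and 6956, 6737 and 9169 in Ctrl, a log2 difference of 0.46 ± 0.26 in WK2 against Ctrl. The groups overlapped, WK2 replicate 2 was the highest array, and the difference was 0.15 without it and 0.66 without WK2 replicate 3. The intermediate chain gene Dnai1 was nearly level, between 4655 and 5273 over the 9 arrays, with averages of 5073 ± 251 in WK2, 4879 ± 234 in D1 and 5018 ± 223 in Ctrl (SD, n = 3 each). Its partner Dnai2 had 8698, 8745 and 4091 in WK2, 6962, 6315 and 8002 in D1, and 7845, 7329 and 6986 in Ctrl. WK2 replicate 3 was the lowest of the 9 and the other WK2 arrays were the highest. Dnah9, an outer arm heavy chain of the outer part of the cilium, showed the same split, with 4768, 5005 and 3089 in WK2, against 4049, 3689 and 4437 in D1 and 3992, 3106 and 4700 in Ctrl. In WK2 against Ctrl the log2 difference of Dnai2 was -0.12, and 0.24 without WK2 replicate 3, and that of Dnah9 was 0.11, and 0.33 without it.

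Dynlrb2, a roadblock-type dynein light chain, had an intensity of 90500, 78230 and 108694 in WK2, 71291, 72411 and 66505 in D1, and 62236, 83282 and 50048 in Ctrl. All WK2 arrays were above all D1 arrays, and Ctrl replicate 2 lay within the WK2 range. The log2 difference was 0.52 ± 0.20 (SE) in WK2 against Ctrl (adjusted p = 0.126, limma), 0.40 without WK2 replicate 3, and 0.39 in WK2 against D1.

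Genes for the proteins that set the repeat of the axoneme and tie its doublets together lay on both sides of saline. Ccdc39, which with Ccdc40 forms the ruler along each doublet, had an intensity of 10353, 12461 and 13684 in WK2, 8985, 8920 and 8592 in D1, and 8078, 8544 and 7044 in Ctrl. The 3 groups did not overlap in either step, WK2 being the highest and Ctrl the lowest. It was 1.53-fold higher in WK2 than in Ctrl (log2 0.62 ± 0.15 SE, adjusted p = 0.0597, limma), with 0.53 without WK2 replicate 3, and 1.37-fold higher than in D1 (adjusted p = 0.186). Ccdc40 had 14328, 14998 and 7891 in WK2, 16584, 12054 and 14623 in D1, and 13283, 18416 and 12066 in Ctrl. WK2 replicate 3 again held the lowest value, and the log2 difference of -0.27 ± 0.27 in WK2 against Ctrl was 0.03 without that array. Ccdc65, a subunit of the nexin-dynein regulatory complex, had 13109, 10892 and 6409 in WK2, 12598, 11905 and 12488 in D1, and 13478, 15207 and 11628 in Ctrl, a log2 difference of -0.46 ± 0.24 in WK2 against Ctrl that was -0.16 without WK2 replicate 3. The ciliary coiled-coil gene Ccdc113 had 13596, 11910 and 20903 in WK2, 12087, 10719 and 10731 in D1, and 10419, 8018 and 9615 in Ctrl. Every WK2 and every D1 array lay above every Ctrl array. It was 1.61-fold higher in WK2 than in Ctrl (log2 0.69 ± 0.21 SE, adjusted p = 0.0825, limma), with 0.45 without WK2 replicate 3.

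Radial spoke genes lay above saline for all 4 members in WK2, but Rsph1 (0.07) lay below 0 under quantile normalization (-0.06), with median centring (-0.02) and without Ctrl replicate 3 (-0.01). Their median was 0.29, and 0 of 4 passed the test. Rsph9, a spoke head protein, had an intensity of 75102, 91865 and 214475 in WK2, 72985, 74597 and 61655 in D1, and 63628, 60639 and 61374 in Ctrl. WK2 replicate 3 was far above any other array, although the other WK2 arrays also lay above every Ctrl array. The log2 difference was 0.88 ± 0.32 (SE) in WK2 against Ctrl (adjusted p = 0.114, limma), 0.42 without WK2 replicate 3, and 0.71 ± 0.32 in WK2 against D1 (adjusted p = 0.262), the last being 0.26 without WK2 replicate 3. Lrrc23, another spoke protein, had 44056, 49592 and 56014 in WK2, 43029, 48133 and 42197 in D1, and 35545, 40671 and 34187 in Ctrl. Every array of either dexamethasone group lay above every Ctrl array. Lrrc23 was 1.35-fold higher in WK2 than in Ctrl (log2 0.44 ± 0.15 SE, adjusted p = 0.0999, limma), with 0.35 without WK2 replicate 3. It was 1.21-fold higher in D1 than in Ctrl (log2 0.27 ± 0.15 SE, adjusted p = 1). The spoke genes Rsph1 and Rsph4a averaged 52106 ± 4408 and 11891 ± 2387 in WK2, 49867 ± 4510 and 10536 ± 1580 in D1, and 49864 ± 7821 and 10563 ± 637 in Ctrl (SD, n = 3 each), with overlapping groups.

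Among central pair genes, Spag6 had the smallest p of all members in WK2 against Ctrl. The mouse has a pair of genes of this name, and the probe used is that of Spag6l on chromosome 16, which older annotation called Spag6; the probe of the gene now called Spag6, on chromosome 2, read only 46 to 86 on the 9 arrays. The Spag6l probe gave 7895, 9307 and 7315 in WK2, 5187, 5754 and 5967 in D1, and 4677, 6077 and 4028 in Ctrl. Every WK2 array lay above every D1 and Ctrl array. Spag6 was 1.67-fold higher in WK2 than in Ctrl (log2 0.74 ± 0.18 SE, adjusted p = 0.0591, limma), with 0.81 without WK2 replicate 3, and 1.44-fold higher than in D1 (adjusted p = 0.188). Hydin, a giant central pair protein whose loss causes hydrocephalus in mice, had 1706, 2077 and 716 in WK2, 1191, 1794 and 1966 in D1, and 1601, 1418 and 1717 in Ctrl. WK2 replicates 3 and 2 were the lowest and the highest of the 9 arrays, and the log2 difference of -0.19 in WK2 against Ctrl was 0.25 without WK2 replicate 3. Spag16 had 1107, 1234 and 1218 in WK2, 937, 951 and 1055 in D1, and 1057, 1042 and 934 in Ctrl, a log2 difference of 0.22 ± 0.13 in WK2 against Ctrl with no overlap between these groups. Spag17 had 976, 1112 and 810 in WK2, 810, 1010 and 991 in D1, and 812, 833 and 791 in Ctrl, so that WK2 replicate 3 lay among the Ctrl values.

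Tektins are filament proteins inside the doublets, and their genes did not lie together. Tekt1 had an intensity of 27218, 21742 and 58732 in WK2, 27625, 20145 and 20638 in D1, and 25098, 24693 and 23800 in Ctrl. The log2 difference of 0.41 ± 0.31 (SE) in WK2 against Ctrl rested on WK2 replicate 3 and was -0.01 without it. Tekt2 averaged 2447 ± 318 in WK2, 2831 ± 211 in D1 and 2641 ± 365 in Ctrl, and Tekt4 9706 ± 1783 in WK2, 7482 ± 1133 in D1 and 6735 ± 2509 in Ctrl (SD, n = 3 each), both with overlap. Mns1, another protein of the doublet interior, had 22614, 16371 and 25343 in WK2, 15314, 14201 and 15553 in D1, and 17008, 15916 and 13858 in Ctrl. Every WK2 array lay above every D1 array, with a log2 difference of 0.49 ± 0.18 (adjusted p = 0.207, limma).

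The 9 genes of the basal body, the tip and other parts of ciliated cells were all above saline in WK2, but Cdhr3 (0.02) lay below 0 with median centring (-0.07) and on leaving out any of 4 arrays (down to -0.19). Their median log2 difference was 0.41, and 0 of 9 passed. Tmem212, a membrane protein gene typical of ciliated cells, had an intensity of 23736, 21180 and 26697 in WK2, 19597, 17213 and 18604 in D1, and 18275, 14623 and 14695 in Ctrl. Every WK2 array lay above every D1 and Ctrl array. The log2 difference was 0.59 ± 0.15 (SE) in WK2 against Ctrl (adjusted p = 0.0645, limma), with 0.51 without WK2 replicate 3, and Tmem212 was 1.29-fold higher in WK2 than in D1 (adjusted p = 0.243). Sntn, which encodes sentan of the cilium tip, had 5758, 5526 and 6663 in WK2, 4597, 4600 and 4504 in D1, and 4263, 5290 and 2630 in Ctrl, and its WK2 values lay above all others (log2 0.61 ± 0.23 against Ctrl, adjusted p = 0.12, limma, and 0.53 without WK2 replicate 3). Tppp3, of the tubulin polymerization promoting family, had 63816, 65034 and 57561 in WK2, 64638, 67287 and 57699 in D1, and 48558, 68547 and 45910 in Ctrl. The WK2 and D1 ranges overlapped almost wholly, and Ctrl replicate 2 was the highest of the 9.

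In the other 6 genes of this block WK2 replicate 3 lay at one end of the 9 arrays, highest in 5 and lowest in 1. Cfap126, the Flattop protein that positions basal bodies, had an intensity of 58685, 40920 and 108070 in WK2, 42847, 38922 and 42865 in D1, and 43670, 46427 and 36699 in Ctrl. Pifo, a protein of the ciliary base, had 24554, 25619 and 48951 in WK2, against 19319 to 27779 in D1 and 21966 to 26440 in Ctrl. Cetn2, a centrin of centrioles and basal bodies, had 8676, 7725 and 14480 in WK2, against 6445 to 6904 in D1 and 5031 to 8236 in Ctrl. The log2 differences of these 3 genes in WK2 against Ctrl were 0.60, 0.38 and 0.57, in the same order. Without WK2 replicate 3 they were 0.22, 0.06 and 0.30. Fam183b had 29512, 26512 and 52474 in WK2, and its dimmer probe had 12354, 9857 and 17713 there, so that both probes placed WK2 replicate 3 highest (log2 differences of 0.41 and 0.40 in WK2 against Ctrl). Without WK2 replicate 3 the brighter probe gave 0.11. Mlf1 had 37621, 32321 and 56713 in WK2, against 27976 to 33125 in D1 and 31464 to 33809 in Ctrl, with a log2 difference in WK2 against Ctrl of 0.32, and 0.08 without WK2 replicate 3. Cdhr3, a cadherin of ciliated cells that serves rhinovirus C as a receptor in humans, went the other way on that array, with 9428, 7538 and 4749 in WK2, 5551, 7705 and 8111 in D1, and 6374, 8885 and 5681 in Ctrl. Its log2 difference in WK2 against Ctrl was 0.02, and 0.30 without WK2 replicate 3.

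**Figure D3:**
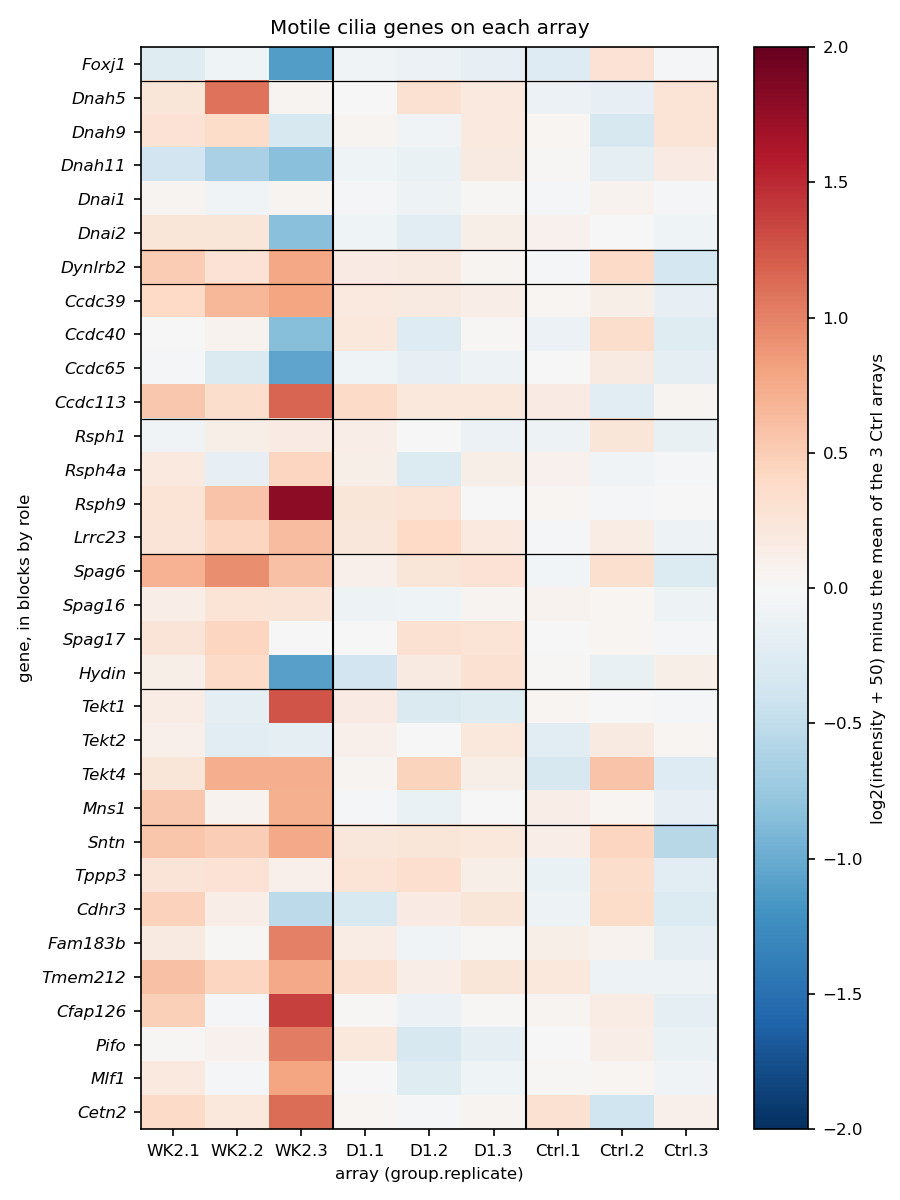
Log2(intensity + 50) of each motile cilia gene minus its mean over the 3 Ctrl arrays, for the WK2, D1 and Ctrl arrays from left to right, with genes in blocks by role; red is higher and blue lower. On WK2 replicate 3 dark red (Rsph9, Cfap126, Tekt1) and dark blue (Foxj1, Hydin, Ccdc65) stand side by side.

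The 32 genes thus parted on WK2 replicate 3. It held the highest value of the 9 arrays for 16 members, while it held the highest for 31% of all features. It held the lowest value for 8 members, Foxj1, Dnah9, Dnah11, Dnai2, Ccdc40, Ccdc65, Hydin and Cdhr3, and for 20.8% of all features. Against the mean of the other 2 WK2 arrays, 8 members lay more than 0.5 higher on the log2 scale, up to 1.37 in Rsph9, and 8 lay more than 0.5 lower, down to -1.34 in Hydin. All features had 14.3% and 14.2% beyond those limits. The 8 higher ones were Ccdc113, Rsph9, Tekt1, Fam183b, Cfap126, Pifo, Mlf1 and Cetn2, and the 8 lower ones were Foxj1, Dnah5, Dnah9, Dnai2, Ccdc40, Ccdc65, Hydin and Cdhr3. The members' summed intensity was 689771 to 1016251 in WK2, 602259 to 649398 in D1 and 539100 to 658122 in Ctrl, so the WK2 range lay above both. Its top was WK2 replicate 3, where Rsph9 read 214475 and Cfap126 108070, and the other WK2 arrays lay much nearer to Ctrl. Such a sum weighs the brightest genes most and does not describe all members alike.

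**Figure D4:**
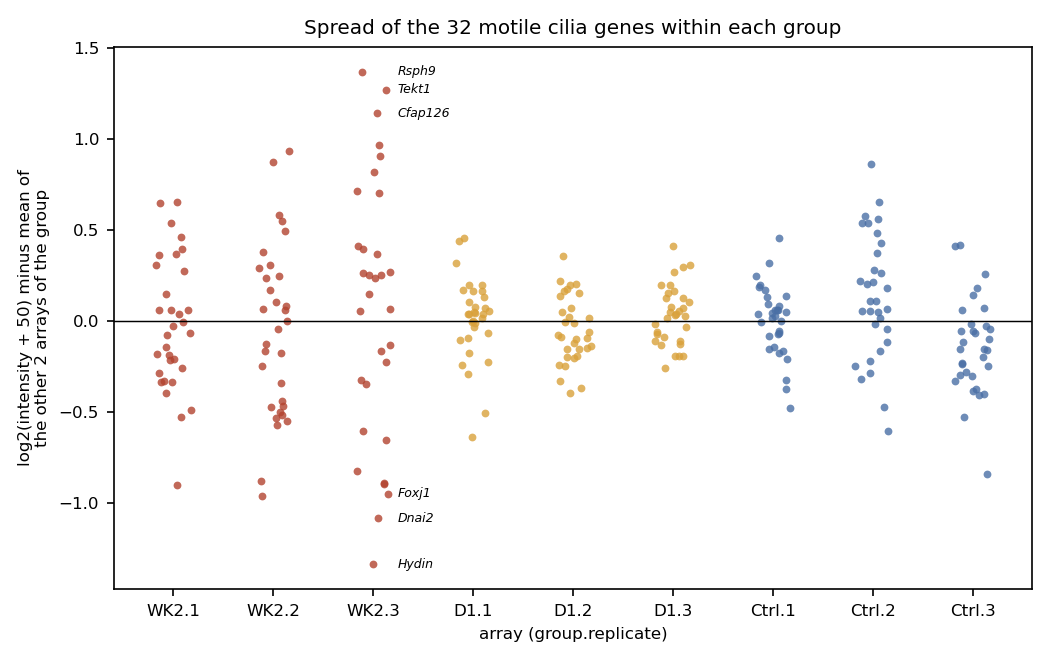
For each array, points are the 32 motile cilia genes, placed by log2(intensity + 50) minus the mean of the other 2 arrays of the group, with WK2 in red, D1 in yellow and Ctrl in blue. The points of WK2 replicate 3 run from -1.34 (Hydin) to 1.37 (Rsph9), while those of D1 lie between -0.64 and 0.45.

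After 1 day of dexamethasone the motile cilia genes stood close to saline. The median log2 difference in D1 against Ctrl was 0.04, beside 0.03 over all features, and 19 of 32 members were above 0 (59.4%, against 56.6% of all features). With limma 0 members were called at an adjusted p under 0.05, as were 0% of all features, and 0 members had an unadjusted p under 0.05, against 2% of all features. Groups did not overlap in 3 members, Ccdc39, Ccdc113 and Lrrc23, which is 9.38% against 10.1% of all features; all 3 were higher in D1, as were 4.92% of all features. The 6 members with the smallest p were Lrrc23 (log2 0.27), Tmem212 (0.22), Tppp3 (0.24), Ccdc113 (0.26), Spag17 (0.19) and Spag6 (0.21), at an adjusted p of 1 for each. Standard errors were 0.13 to 0.34 over the members, and a difference that misses the test does not show that D1 and Ctrl were alike.

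Between the treatment lengths, 23 of 32 members were higher in WK2 than in D1 (71.9%, against 61.6% of all features), with a median of 0.28 beside 0.10. With limma 0 passed, against 0.0931% of all features, and 5 had an unadjusted p under 0.05 (15.6%, against 19.2% of all features). These were Ccdc39 (0.45), Spag6 (0.53), Mns1 (0.49) and Tmem212 (0.36) on the higher side (12.5%, against 8.96% of all features) and Dnah11 (-0.61) on the lower (3.12%, against 10.2%). Without WK2 replicate 3 these 5 differences were 0.36, 0.60, 0.36, 0.28 and -0.50, in the same order. The groups did not overlap in 10 members, 31.2%, against 31.4% of all features. WK2 and D1 were each set against the same Ctrl arrays, and WK2 enters both of its comparisons, so these values are not independent.

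Genes that work with the members gave 5 calls in WK2 against Ctrl, in both directions. In a list of the multiciliated cell programme 0 of 26 measured genes rose and 1 fell (3.85% called, against 1.61% of all features). The list's median was 0.10, beside 0.14 over all features, and 16 genes were above 0 (61.5%, against 62.7%). An unadjusted p under 0.05 was reached by 7 (26.9%, against 29.7% of all features). The gene that fell was Rfx2, an RFX factor of ciliogenesis, with an intensity of 3359, 3992 and 2258 in WK2, 6495, 5507 and 5665 in D1, and 5380, 7731 and 7190 in Ctrl. Every WK2 array lay below every D1 and Ctrl array, and Rfx2 was 2.13-fold lower in WK2 than in Ctrl (log2 -1.09 ± 0.22 SE, adjusted p = 0.0493, limma). Its relative Rfx3 was between 22608 and 34183 on all arrays, with a log2 difference of -0.04 ± 0.18. E2f4, which acts with multicilin in frogs and mice, lay at -0.99 (adjusted p = 0.0551) and the ciliary kinase gene Mapk15 at -0.99 (adjusted p = 0.0571) in WK2 against Ctrl, and neither passed. Early regulators were mixed: Gmnc lay at 0.63 and Ccno at -0.62, and Mcidas, at 132 to 192 on the 9 arrays, at 0.04. Among the WK2 arrays replicate 3 was the highest for Gmnc (8088, 6847 and 11749) and the lowest for Ccno (2764, 2400 and 1550).

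In a list of 89 other motile axoneme genes 2 rose and 2 fell (4.49% called, against 1.61% of all features). Their median was 0.22, beside 0.14 over all features, with 63 above 0 (70.8%, against 62.7%). An unadjusted p under 0.05 was reached by 25 of them (28.1%, against 29.7% of all features). Cfap58, a flagellar coiled-coil gene, had an intensity of 9441, 8695 and 10650 in WK2, 6417, 7075 and 5986 in D1, and 5132, 4961 and 5089 in Ctrl. The WK2 arrays were highest and the Ctrl arrays lowest, with no overlap, and it was 1.88-fold higher in WK2 than in Ctrl (adjusted p = 0.0352, limma). Ccdc81 had 3474, 3746 and 3327 in WK2, 2486, 3010 and 2678 in D1, and 2111, 2099 and 2017 in Ctrl, in the same order of groups, and was 1.68-fold higher in WK2 than in Ctrl (adjusted p = 0.0422, limma). Cfap43, which mouse sperm need for their flagellum, had 690, 480 and 567 in WK2, 1203, 983 and 1372 in D1, and 1251, 1084 and 1312 in Ctrl, and was 2.02-fold lower in WK2 than in Ctrl (adjusted p = 0.0413, limma). Stk36, a kinase that mice need to form the central pair, had 2947, 2163 and 2009 in WK2, 4157, 3548 and 3712 in D1, and 4002, 4107 and 4510 in Ctrl, and was 1.78-fold lower in WK2 than in Ctrl (adjusted p = 0.0489, limma). In both genes every WK2 array lay below every D1 and Ctrl array. The calls of Rfx2, Cfap58, Ccdc81, Cfap43 and Stk36 were lost on leaving out any single array other than WK2 replicate 1, with adjusted p up to 0.148, and in the fit of 2 groups. Without WK2 replicate 3 their log2 differences in WK2 against Ctrl were -0.86, 0.83, 0.78, -1.01 and -0.72, in the same order.

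Genes that immotile cilia also use, and factors that assemble dynein arms, were tested in the same fit. Of 32 intraflagellar transport genes, which carry cargo along all cilia, 18 were above 0 in WK2 against Ctrl (56.2%, against 62.7% of all features), with a median of 0.05. Of 25 BBSome and transition zone genes 14 were (56%), also with a median of 0.05. In both lists 0 rose and 0 fell by limma, with 7 and 8 genes at an unadjusted p under 0.05 (21.9% and 32%, against 29.7% of all features), among them Ift20 (0.74), Traf3ip1 (-0.79) and Bbs1 (-0.77). Of 19 genes for the assembly and docking of dynein arms 10 were above 0 (52.6%), with a median of 0.02 and 0 called. At an unadjusted p under 0.05 there were 4 (21.1%, against 29.7% of all features), among them the docking gene Armc4 (1.04, adjusted p = 0.061, limma). Armc4 had an intensity of 6814, 9003 and 14806 in WK2, with WK2 replicate 3 far the highest, and 4145 to 5475 in Ctrl. Against the lists' medians stands 0.14 over all features. In WK2 against D1 the medians were 0.03, 0.25 and -0.01 for intraflagellar transport, BBSome and transition zone, and dynein assembly genes, beside 0.10 over all features, and differences between lists were not tested.

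Markers of neighbouring cells were set beside these values. Markers of sustentacular cells, the support cells of olfactory epithelium, had 7 of 8 genes above 0 in WK2 against Ctrl (87.5%, against 62.7% of all features). Their median was 0.46, beside 0.14 over all features, and their summed intensity was 1638774 to 1738030 in WK2, 1357998 to 1568534 in D1 and 1091983 to 1382617 in Ctrl. Respiratory secretory and goblet cell markers had 9 of 14 above 0 (64.3%) and 5 below, with a median of 0.25, and a sum of 2027147 to 2176752 in WK2, 1579043 to 2137267 in D1 and 1511483 to 1650092 in Ctrl. The brightest genes were Cyp2g1 and Cbr2 in the sustentacular sum and Bpifa1 and Cyp2f2 in the secretory sum. A sum weighs such genes most and does not describe every marker of the list. Mature olfactory neuron markers had 9 of 15 above 0 (60%) with a median of 0.13, and a sum of 2022281 to 2253014 in WK2, 1622989 to 2070908 in D1 and 1801038 to 2009629 in Ctrl. The brightest gene in this sum is Omp, for whose expression the samples were taken forward. Omp had 501267, 540038 and 478900 in WK2, and 411529, 300267 and 300586 in Ctrl. The sum therefore does not describe these neurons apart from that choice. In these 3 lists 0 genes passed the limma test, with 6, 4 and 5 at an unadjusted p under 0.05 (75%, 28.6% and 33.3%, against 29.7% of all features). Respiratory basal and horizontal basal cell markers had 5 of 10 above 0 (50%) with a median of 0.08, and 4 at an unadjusted p under 0.05 (40%, against 29.7% of all features). Of them 1 fell, Cav1 (10% called, against 1.61% of all features). Cav1 had an intensity of 271, 250 and 232 in WK2, 493, 616 and 459 in D1, and 580, 800 and 652 in Ctrl (log2 -1.26 ± 0.17 SE in WK2 against Ctrl, adjusted p = 0.0267, limma). Immature neuron markers had 2 of 9 above 0 (22.2%) with a median of -0.27, and 4 at an unadjusted p under 0.05 (44.4%, against 29.7% of all features). Of them 1 fell, Dpysl5 (11.1% called, against 1.61% of all features). Dpysl5 had 8856, 7212 and 5188 in WK2, 16188, 11819 and 15019 in D1, and 15626, 15551 and 19132 in Ctrl (log2 -1.26 ± 0.21 SE in WK2 against Ctrl, adjusted p = 0.0398, limma). Cav1 and Dpysl5 were both lowest on the WK2 arrays, with no overlap. The call of Cav1 was lost in the fit of 2 groups (adjusted p = 0.0839, limma) and without any one of 6 arrays, WK2 replicate 2 or 3, D1 replicate 1 or 3, or Ctrl replicate 1 or 3 (up to 0.145). That of Dpysl5 was lost in the fit of 2 groups (adjusted p = 0.112, limma) and without any one array but WK2 replicate 1 (up to 0.148). Without WK2 replicate 3 their log2 differences were -1.22 and -1.06, and with a pseudocount of 500 that of Cav1 was -0.64. Olfactory gland markers had a median of -0.09, microvillous and ionocyte markers 0.18, spermatid markers 0.26 and ependymal and choroid plexus markers -0.10. In these 4 lists 0 genes were called, with 7, 2, 2 and 0 at an unadjusted p under 0.05 (58.3%, 20%, 20% and 0%, against 29.7% of all features). The part of these markers in the motile cilia values was not tested.

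**Figure D5:**
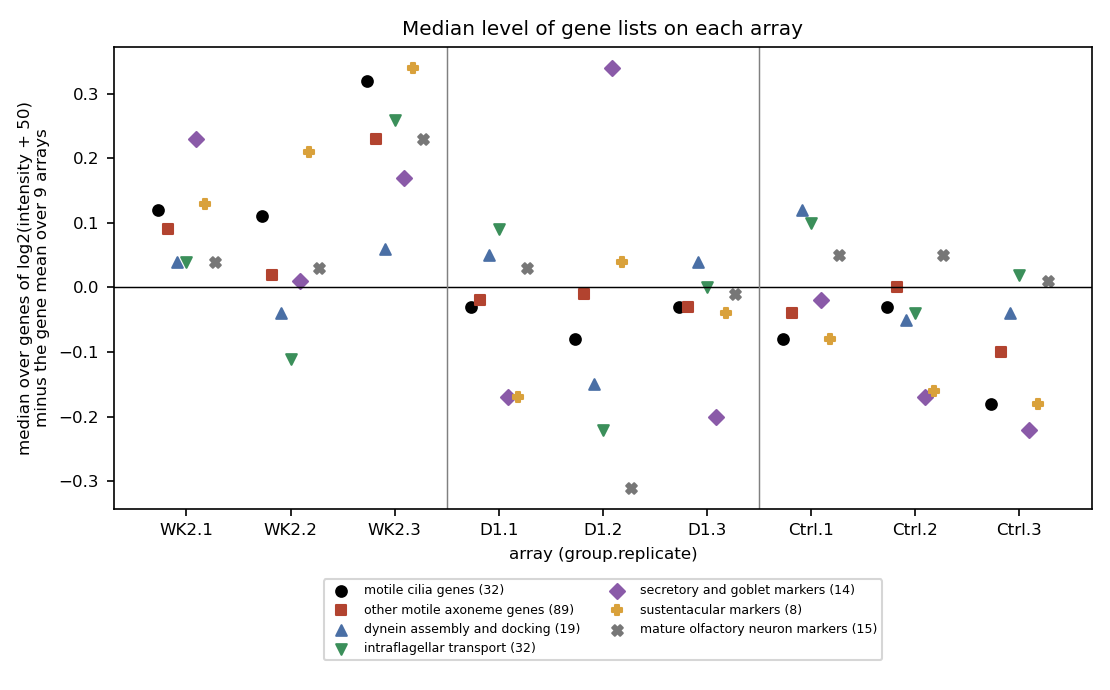
For each array, points are the median over a gene list of log2(intensity + 50) minus each gene's mean over the 9 arrays, with 1 symbol per list and the number of genes in the legend. The motile cilia genes (black) stand at 0.12, 0.11 and 0.32 on the WK2 arrays, against -0.08 to -0.03 on the D1 arrays and -0.18 to -0.03 on the Ctrl arrays. Over all features, which are not drawn, the same measure was 0.08, 0.01 and 0.10 on the WK2 arrays. It was -0.02 to 0.02 on the D1 arrays and -0.11 to 0.03 on the Ctrl arrays.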

How the data were processed

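Total RNA of 9 olfactory mucosa samples was labelled with Cy5, 1 sample per array, per the labels' protocols; scanner, software and normalization were not given in the sources used here. Intensity, as deposited, is on a linear scale for 26423 probes; 8 to 18 values per array lie below 0, as after background subtraction, and the target of any scaling is unknown. Nothing was normalized further. Precision is limited by having 3 arrays a group.

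Probes were named by the platform annotation, updated by gene ID through RefSeq's table for GRCm38.p6 (21825 probes matched); 21876 probes had 1 symbol, 0 had several and 4547 had none and were kept under their IDs. The 32 members had 35 probes. The brightest probe stood for a gene, leaving 23631 features. Log2(intensity + 50) was fitted over all 9 arrays with limma 3.58.1 in R 4.3.3, tested on simulated data, with Benjamini-Hochberg adjustment over all features per comparison; the log2 scale with this pseudocount understates changes of dim genes. The members and all gene lists were chosen with earlier results of these data known. Genes given with every value were all called genes, the 6 members of smallest p per comparison, Foxj1, and the 3 brightest and 3 dimmest members; other members were added to account for all, and E2f4, Mapk15, Gmnc, Ccno, Mcidas and Rfx3 were chosen after their values were seen. Other lists give called genes and otherwise up to 3 of smallest p. Alternatives were other scalings, pseudocounts of 16 and 500, dropping the dimmest 25% or 50%, the mean of a gene's probes, a fit of 2 groups, the replicate block, array weights, trend and robust moderation, and leaving out each array.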

Additional observations from a re-analysis of the deposited data

How the results depend on the processing

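In D1 against Ctrl and in WK2 against D1 the count of called members was 0 in all 20 alternatives. In WK2 against Ctrl it was 0 in 14. Under quantile normalization it reached 3 (Ccdc39, Spag6 and Tmem212), where 5.34% of all features were called. Without the dimmest 50% of features it was 3 (the same 3 genes, with 30 members left to test), beside 9.85%. It was 2 with a pseudocount of 500 (Ccdc39 and Tmem212), beside 3.29%, and 1 with median centring (Dnah11), beside 6.41%. Array weights gave 8 (Dnah11, Dynlrb2, Ccdc39, Lrrc23, Spag6, Tekt4, Sntn and Tmem212), where 11.6% of all features were called. With 1 array left out it was 0 to 1, the 1 being Ccdc39 without WK2 replicate 1, beside 4.03%. Over all features the count was 380, against 1261 under quantile normalization, 1514 with median centring, 131 and 777 with pseudocounts of 16 and 500, 615 and 1164 without the dimmest 25% and 50%, 2738 with array weights, 0 in the fit of 2 groups and 1 to 953 with 1 array left out. With the replicate block it was 1, and 0 members were called. Correlations of the deviations from group means were -0.282 to 0.136 for same-numbered samples of different groups. For unlike-numbered samples they were -0.338 to 0.308. This check showed no sign of pairing by number, but with 3 arrays a group it cannot exclude it. The members' median in WK2 against Ctrl was 0.26 under quantile normalization, 0.25 with median centring, 0.25 with array weights and 0.26 to 0.38 with 1 array left out, and in WK2 against D1 it was 0.19 with array weights and 0.20 to 0.34 with 1 array left out. Quantile normalization moved the median of all features in WK2 against Ctrl to 0.02, against 0.14 as deposited.

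Small differences in WK2 against Ctrl changed sign, none of them past the test: with median centring Dnai1 (-0.08), Rsph1 (-0.02) and Cdhr3 (-0.07), with quantile normalization Rsph1 (-0.06), and with array weights Dnai2 (0.15), Ccdc40 (0.10), Hydin (0.02) and Tekt2 (0.04). With 1 array left out Dnah9 ran from -0.05 to 0.33, Dnai1 from -0.01 to 0.06, Dnai2 from -0.30 to 0.24, Ccdc40 from -0.43 to 0.03, Rsph1 from -0.01 to 0.20, Hydin from -0.49 to 0.25, Tekt1 from -0.01 to 0.70 and Cdhr3 from -0.19 to 0.30, and Foxj1 in D1 against Ctrl from -0.25 to 0.02. The cause was not tested.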
